A study of Arabidopsis thaliana with 33 samples.

Results

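Transcripts of the plastid genome were followed across 33 Affymetrix ATH1 arrays of 10 d Arabidopsis thaliana seedlings of the Wassilewskija (WS) ecotype. The members were chosen by gene location: a probe set was taken where the gene that the platform table names for it lies on the plastid genome in the RefSeq gene table. This gave 77 probe sets of the 22746 on the array, for 76 plastid gene symbols (rps12 had 2 probe sets, 244939_at and 244940_at). Seedlings were held for 24 h under constant light in low-pressure chambers in 1 of 6 atmospheres, and roots and shoots were hybridised separately. The atmospheres were 50 kPa (partial pressure of oxygen 10 kPa), 50 kPa/NormOx (50 kPa with oxygen brought up to 21 kPa), 25 kPa (oxygen 5 kPa), 25 kPa/NormOx (25 kPa with oxygen at 21 kPa), 97 kPa/HypOx (ambient pressure with oxygen lowered to 5.1 kPa) and 97 kPa (the ambient control, oxygen 21 kPa). In that order there were 3, 2, 3, 1, 3 and 3 root arrays and 3, 4, 3, 3, 2 and 3 shoot arrays. Each RNA came from a tube of about 12 plants. Each atmosphere had 3 chambers, and the methods state that 1 tube was taken per chamber. The labels do not say which chamber an array came from, and shoots at 50 kPa/NormOx had 4 arrays. The p-values measure only the spread between these arrays.

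The plastid genome of a flowering plant encodes a small part of the photosynthetic apparatus and of the machinery that expresses it, and most other plastid proteins are imported from the cytosol. Its genes lie in clusters that are transcribed together into long precursors, by a bacterial-type polymerase whose core subunits are themselves plastid-encoded and by phage-type polymerases encoded in the nucleus, and the precursors are then cut, spliced and edited. Mature plastid mRNAs mostly lack a stable poly(A) tail, and short tails there mark RNA for decay. The labelling kit used here was a 3′ kit that primes on poly(A), so the values report those plastid RNA molecules that were primed under these conditions. The study removed organelle transcripts before its own tests.

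By function the 77 probe sets fell into 15 for photosystem II, 7 for photosystem I and its assembly factors ycf3 and ycf4, 7 for the cytochrome b6f complex and cytochrome maturation (ccsA), 6 for the ATP synthase, 11 for the NADH dehydrogenase-like (NDH) complex, 1 for the large subunit of Rubisco, 4 for the plastid-encoded RNA polymerase, 20 for ribosomal proteins and 6 for other proteins (matK, accD, cemA, clpP, ycf1, ycf2). Of these, 8 probe sets belonged to genes that lie in more than 1 copy in the plastid genome (rpl2, rpl23, ycf2, ndhB, rps7, ycf1 and both rps12 probe sets), whose copies cannot be told apart. In what follows all levels and differences are on the log2 scale of the deposited robust multi-array average (RMA) values, a difference of 1 being 2-fold. A probe set was called changed where limma gave an unadjusted p under 0.01 and a difference of at least 2-fold, the threshold of the study; p-values were also adjusted by the Benjamini-Hochberg procedure over all 22746 probe sets.

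Tissue labels were checked first. The mean of 7 nuclear green-tissue markers lay between 6.50 and 7.86 on the root arrays and between 11.2 and 11.6 on the shoot arrays, and that of 3 root markers between 8.68 and 10.0 on the root arrays and between 5.52 and 7.57 on the shoot arrays. A single array stood apart from the others in each tissue. These were root 97 kPa replicate 1, which correlated with the rest of the root set at 0.884 on average (0.966 to 0.980 for the remaining arrays), and shoot 50 kPa/NormOx replicate 1, at 0.899 (0.974 to 0.983 for the remaining arrays). Counts of called members, calls and medians are given below without some of the arrays whose removal changed them. Ranges of the counts with 1 array left out are given at the end. Shares of all probe sets are those with every array kept, so counts without an array have no such share beside them. Differences of single members that were not called rested on few arrays and are descriptions: of those named below against 97 kPa (the called members and the highest and lowest of each comparison), 27 of 32 in roots and 25 of 30 in shoots moved by over 1.5 times or turned sign when 1 array was left out, and 4 and 5 of them turned sign.

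Plastid transcripts were low in roots and high in shoots. The median of the 77 members lay between 4.52 and 5.88 on the root arrays, near the all-probe-set median of 5.12, and between 7.57 and 9.45 on the shoot arrays, where that median was 5.14. Between 32 and 55 members were below their array's median in roots and between 4 and 12 in shoots. Root and shoot values had been normalized separately, so a difference between tissues is a description of those values and carries no test. On that scale all 77 members had a lower mean in roots, with a median difference of -3.08, against -0.13 over all probe sets. For 60 of the 77 (77.9%) every shoot array exceeded every root array, which was so for 17.1% of all probe sets. The 24 probe sets of the mitochondrial genome, the other organelle genome, differed far less between tissues, with a median of -0.31 and 19 of 24 lower in roots. In bulk tissue, fewer cells with chloroplasts, fewer plastid genomes per cell and less RNA per genome cannot be told apart.

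**Figure D1:**
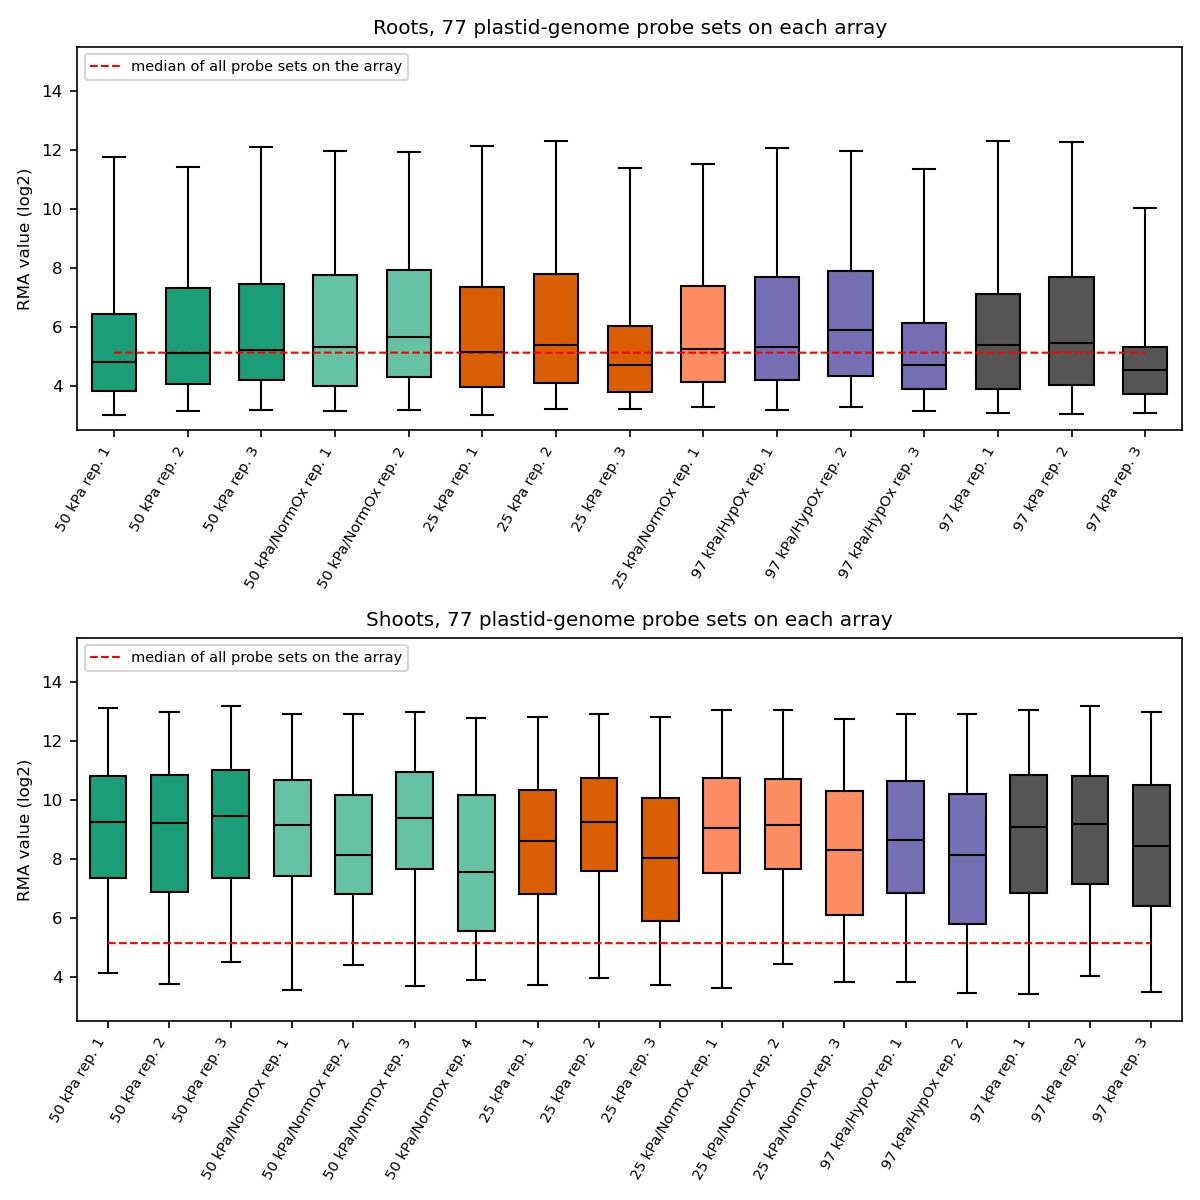
RMA values (log2, vertical axis) of the 77 plastid-genome probe sets on each root array (upper panel) and shoot array (lower panel), with boxes from the lower to the upper quartile, a line at the median and whiskers at the lowest and highest member. The dashed line is the array's median over all probe sets; members straddle it in roots, where their medians were 4.52 to 5.88, and most lie above it in shoots, where they were 7.57 to 9.45.

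The tissue difference was unequal among members. Signals near the bottom or the top of the scale limit the size that a difference can take, so the order of members is only that of the measured values. By these values it was widest for psbT, which encodes a small subunit of the photosystem II core, with a mean of 3.59 in roots, near the dimmest members, and 8.74 in shoots. The ribosomal protein gene rpl22 averaged 4.69 in roots and 9.77 in shoots, and psbF, the beta subunit of cytochrome b559, averaged 5.90 in roots and 10.92 in shoots. At the other end, psbM, another small photosystem II subunit and the brightest member in roots, averaged 11.78 in roots and 12.65 in shoots, and matK, the maturase that helps splice group II introns, averaged 10.30 in roots and 11.00 in shoots. The smallest difference, -0.54, was that of rpoB, which encodes the beta subunit of the plastid-encoded RNA polymerase and was dim in both tissues. By function the median root-minus-shoot difference was -3.57 for the ATP synthase, -3.24 for photosystem II, -3.12 for photosystem I, -3.12 for ribosomal proteins, -2.90 for the NDH complex, -2.87 for the RNA polymerase, -2.54 for cytochrome b6f, -1.98 for rbcL and -1.90 for the remaining genes. Ribosomal protein genes thus had the same median difference as photosystem I genes.

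Probe sets bind with different strengths, so the order of their signals is no order of transcript abundance. By signal alone, the 3 brightest members in roots were psbM (mean 11.8), matK (10.3) and atpE (10.3), the epsilon subunit of the ATP synthase, and the 3 dimmest were atpI (3.20), ndhF (3.21) and rps16 (3.37). In shoots the brightest were atpE (13.0), psbM (12.6) and rpl2 (12.5), and the dimmest were ndhF (4.05), atpI (4.20) and rpoB (4.30). The dimmest 25% of all probe sets held 18 of the 77 members in roots and 2 in shoots.

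Replicate arrays differed more in plastid transcripts than in most other transcripts. The SD between arrays of the same group, pooled over groups, had a median over the members of 0.51 in roots and 0.57 in shoots, against 0.23 and 0.19 over all probe sets and 0.29 and 0.28 over the mitochondrial ones. In roots 51 of 77 members (66.2%) and in shoots 66 of 77 (85.7%) had an SD above the upper quartile of all probe sets (0.341 in roots, 0.301 in shoots). The members' SDs spanned 0.0565 to 2.56 (roots) and 0.101 to 1.11 (shoots). By function the NDH genes had a median SD of 0.268 in roots and 0.780 in shoots, while the group of other genes (matK, accD, cemA, clpP, ycf1, ycf2) had 0.803 in roots and 0.511 in shoots. The median level was 4.14 in roots and 6.92 in shoots for the NDH genes, and 5.98 and 9.80 for the other genes. Dim signals limit the spread, so these SDs are not compared apart from level.

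**Figure D2:**
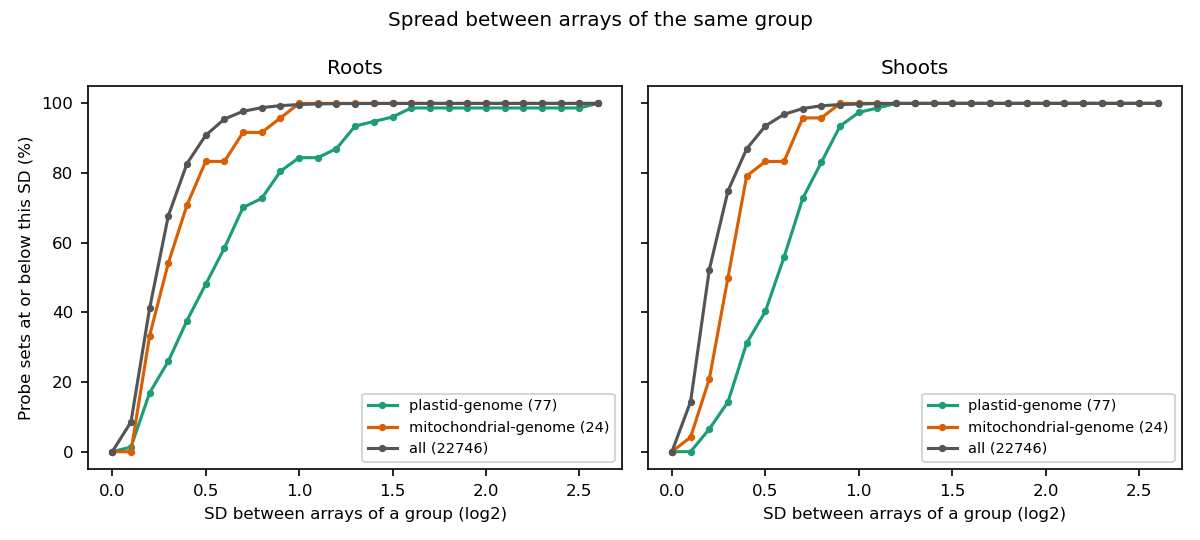
Share of probe sets (percent, vertical axis) whose SD between arrays of the same group (log2, horizontal axis) is at or below a given value, for the 77 plastid-genome, the 24 mitochondrial-genome and all 22746 probe sets, in roots (left) and shoots (right). The plastid-genome curve lies to the right of the others, with median SDs of 0.51 in roots and 0.57 in shoots, against 0.23 and 0.19 over all probe sets.

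The widest spread in roots was that of psaJ, a small subunit of photosystem I. It had 4.94, 7.46 and 7.45 in the 3 arrays at 50 kPa, 7.77 and 11.02 at 50 kPa/NormOx, 7.44, 11.04 and 4.35 at 25 kPa, 7.22 in the single array at 25 kPa/NormOx, 6.87, 8.28 and 6.69 at 97 kPa/HypOx, and 6.25, 11.05 and 4.08 at 97 kPa. Its values at 97 kPa thus spanned those of all other root groups. The next widest, atpB and petB, encode the beta subunit of the ATP synthase and cytochrome b6. Root atpB had 8.06, 9.10 and 9.48 at 50 kPa, 9.64 and 8.76 at 50 kPa/NormOx, 9.10, 8.54 and 6.17 at 25 kPa, 8.64 at 25 kPa/NormOx, 9.17, 9.18 and 5.64 at 97 kPa/HypOx, and 8.51, 8.38 and 4.93 at 97 kPa. In 3 groups the third array was the low one, by more than 2 units, and the other arrays of those groups lay close together. Root petB had the same low arrays, with 5.96 at 25 kPa, 5.88 at 97 kPa/HypOx and 4.69 at 97 kPa in replicate 3, and its other root arrays lay between 8.18 and 9.11. The transcript for the D1 protein of photosystem II, psbA, again shared them, with 7.12, 6.10 and 5.97 in those 3 arrays, and 8.24 to 9.63 in all others. The reaction-centre gene psaB had 6.15, 4.71 and 4.60 in them, and 7.50 to 8.58 elsewhere.

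In shoots the largest SD between arrays of a group was that of psbB, the CP47 antenna protein of photosystem II. It had 8.04, 7.41 and 7.55 at 50 kPa, 9.08, 7.57, 7.77 and 5.73 at 50 kPa/NormOx, 7.80, 8.31 and 6.22 at 25 kPa, 8.35, 8.15 and 5.89 at 25 kPa/NormOx, 6.84 and 6.14 at 97 kPa/HypOx, and 8.26, 7.47 and 6.06 at 97 kPa. Low arrays occurred in every group except 50 kPa, and apart from 50 kPa and 97 kPa/HypOx all groups overlapped. For rpl32, a protein of the large ribosomal subunit, the spread came from 1 array: shoot 50 kPa/NormOx replicate 1, the outlying array, had 5.78, and the other 3 of that group had 10.06, 9.67 and 9.09. Over all shoot arrays the widest SDs were those of psbT (1.01, values 6.48 to 10.1), psbB (0.993, 5.73 to 9.08) and rpl32 (0.974, 5.78 to 10.2).

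Most of this variation was shared among members. After the group means were subtracted, a single axis held 67.9% of the members' variance over 14 root arrays (the lone array at 25 kPa/NormOx has no deviation) and 66.5% over 18 shoot arrays, and 71 and 73 of the 77 members had the same sign on it. Over the 2926 pairs of members the median correlation of deviations was 0.45 in roots, with 79.9% of pairs above 0, and 0.54 in shoots, with 86.9% above 0. The same median over mitochondrial probe sets was 0.29 in roots and 0.28 in shoots. These are descriptions: the points share their libraries and their normalization. Those that followed the mean of the remaining members most closely were rps7 (0.97), ndhD (0.96) and psaI (0.95) in roots, and ycf4 (0.98), ycf1 (0.97) and ndhA (0.96) in shoots. Correlations below 0 were those of psaA (-0.36), petD (-0.29), ndhF (-0.19), rpoB (-0.11) and ndhC (-0.08) in roots. In shoots they were those of rpl2 (-0.19) and rpl32 (-0.03). Of the root members psaA (mean 4.28), petD (4.05), ndhF (3.21) and rpoB (3.76) were dim, and ndhC (7.38) was not. Shoot rpl2 (12.5) was among the brightest.

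The arrays that carried the shared variation can be named. In roots the mean of all 77 members was lower than its group's mean by 0.72 in 97 kPa replicate 3 (63 of 77 members below) and by 0.56 in 97 kPa/HypOx replicate 3 (71 of 77 below), and lay 0.48 above it in 97 kPa replicate 2. In shoots it was lower than its group's mean by 0.69 in 50 kPa/NormOx replicate 4 (69 of 77 below), and lay 0.49 above it in 50 kPa/NormOx replicate 3 and 0.52 above it in 25 kPa replicate 2 (76 of 77 above). Where a group had a replicate 3, that array was the lowest in 3 of 4 root groups and 3 of 5 shoot groups, and the highest in the remaining 1 and 2. At 50 kPa in shoots the numbers are those of the sample titles, since the descriptions there number 2 arrays as 3. Apart from that group, replicate 3 was the lowest in 3 of 4 shoot groups and the highest in 1. Across arrays the mean deviation of the members correlated at 0.85 with that of the mitochondrial probe sets in roots (14 arrays) and at 0.60 in shoots (18 arrays), and at 0.48 and -0.25 with that of the nuclear green-tissue markers. The part of tissue composition, RNA state or labelling in this variation was not tested.

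Neighbouring genes had about the same median correlation as distant ones. Neighbours here are members that follow each other in the order of plastid gene symbols, on either strand. They need not be transcribed together. Over these 73 pairs the median correlation of deviations was 0.49 in roots and 0.54 in shoots. Over the other 2852 pairs it was 0.45 and 0.54. Single pairs were closer. In shoots ndhJ and ndhK had 0.98, psbF and psbE 0.97, psbH and petB 0.96, and ndhI and ndhA 0.94. In roots atpE and atpB had 0.94, and rps7 and ycf1, rps2 and rpoC2, and ndhJ and ndhK each had 0.92, while ndhK and ndhC had -0.62 and rpoB and petN had -0.61.

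With this spread, few members passed the threshold between atmospheres. The comparisons below ask which plastid transcripts differed with total pressure, with oxygen, or with both; all comparisons with ambient pressure within a tissue share the same 3 arrays at 97 kPa, so their differences are not independent. The mean of the 77 members in roots was 5.64 ± 0.24 at 50 kPa (SD, n = 3), 6.10 ± 0.14 at 50 kPa/NormOx (n = 2), 5.67 ± 0.38 at 25 kPa (n = 3), 5.89 at 25 kPa/NormOx (n = 1), 5.82 ± 0.51 at 97 kPa/HypOx (n = 3) and 5.53 ± 0.63 at 97 kPa (n = 3). In shoots it was 9.02 ± 0.21 at 50 kPa (n = 3), 8.47 ± 0.53 at 50 kPa/NormOx (n = 4), 8.55 ± 0.49 at 25 kPa (n = 3), 8.74 ± 0.41 at 25 kPa/NormOx (n = 3), 8.37 ± 0.34 at 97 kPa/HypOx (n = 2) and 8.64 ± 0.25 at 97 kPa (n = 3). The SD of single arrays around these group means, pooled, was 0.44 in roots and 0.41 in shoots. Because most members moved together from array to array, counts of members above or below 0 are not counts of replicates. No member reached an adjusted p under 0.05 in any comparison. Of all probe sets, 0.0044% did in roots at 50 kPa, 0.347% at 25 kPa and 0.435% at 97 kPa/HypOx against 97 kPa, and 0% in both NormOx atmospheres. In shoots 0.0791% did at 25 kPa, 0.022% at 97 kPa/HypOx and 0% in the others. At most 0.022% did in the direct comparisons of low-pressure or low-oxygen atmospheres with each other, and at most 0.141% in those of root with shoot response.

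In roots at 50 kPa, no member of 77 passed the threshold, which 0.396% of all probe sets did, and 1 member had an unadjusted p under 0.05 (11.1% of all probe sets). The members' median difference was 0.08, with 52 of 77 above 0, against a median of all probe sets near 0. The 3 highest were atpB (1.61), psbF (1.28) and ycf1 (1.11), a gene for a large inner-envelope protein, and the 3 lowest were the ribosomal protein gene rps4 (-0.69) and the NDH subunit genes ndhJ (-0.66) and ndhK (-0.61). These medians rested on 1 control array: without root 97 kPa replicate 3, low in most members, the median was -0.11 at 50 kPa and 2 members passed the threshold. Without that array 5 members had an adjusted p under 0.05 at 50 kPa, 5 at 25 kPa and 1 at 97 kPa/HypOx. Their directions and the share of all probe sets without that array are not given here. These counts are therefore not read as a result about the members.

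In roots at 25 kPa, again no member passed the threshold (0.901% of all probe sets), and 1 had an unadjusted p under 0.05 (14.9%). The median was 0.11, and -0.10 without root 97 kPa replicate 3, when 3 members passed the threshold. The highest were rpl32 (1.26), psbI (1.10), a photosystem II subunit gene, and petL (1.08), a cytochrome b6f subunit gene. The lowest were rps12 244939_at (-0.89), ndhK (-0.83) and atpA (-0.82), the alpha subunit of the ATP synthase. The other rps12 probe set, 244940_at, had the opposite sign (0.27). The nuclear green-tissue markers had a median difference of 0.83 in the same comparison, with 5 of 7 above 0 and 1 called, and their mean lay between 7.34 and 7.86 on the 25 kPa arrays and between 6.50 and 7.26 on the 97 kPa arrays. Their part in the members' values was not tested.

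At ambient pressure with low oxygen (97 kPa/HypOx), no root member passed the threshold (0.624% of all probe sets), and 4 had an unadjusted p under 0.05 (10.4%). The median was 0.28, and 0.02 without root 97 kPa replicate 3. The highest were psbF (1.5), ycf1 (1.05) and psbI (1.00), and the lowest ndhJ (-0.57), ndhK (-0.51) and psaC (-0.42), the iron-sulfur subunit of photosystem I. At 25 kPa/NormOx, where the single array is assumed to vary like the other groups, no member passed it (0.0396%), 3 had an unadjusted p under 0.05 (3.95%), and the median was 0.26, or 0.06 without root 97 kPa replicate 3. There psbA (1.62), psbI (1.57) and psbF (1.56) were highest, and ndhK (-0.89), rpoA (-0.73) and ndhJ (-0.63) lowest. In all 5 root comparisons with 97 kPa ndhJ or ndhK, neighbouring genes of the NDH complex, was among the 3 lowest, but these comparisons share the outlying root 97 kPa replicate 1, in which ndhJ had 7.19, against 5.44 and 4.84 in the other 97 kPa arrays. Without that array ndhJ lay between -0.04 and 0.12 in the 5 comparisons and ndhK between -0.45 and -0.08.

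The root members called changed against ambient pressure were all at 50 kPa/NormOx. Of the 77, 2 rose and none fell, where 0.0703% of all probe sets were called, 0.0572% higher and 0.0132% lower. Both encode ribosomal proteins. Both were dim at 97 kPa, with root means of 3.46 for rps2 and 4.32 for rpl22, under the all-probe-set median of 5.12. For rps2, a protein of the small subunit, the values were 5.29 and 4.94 at 50 kPa/NormOx, and 3.15, 3.93 and 3.30 at 97 kPa. The 50 kPa/NormOx values were the highest of all 15 root arrays. In the remaining groups they were 3.29, 4.85 and 4.54 at 50 kPa, 4.82, 4.58 and 3.56 at 25 kPa, 4.39 at 25 kPa/NormOx, and 4.64, 4.79 and 3.54 at 97 kPa/HypOx. The difference from 97 kPa was 1.66 (SE 0.52, limma adjusted p = 0.581). The call was lost without any one of root 97 kPa replicate 1 (difference 1.5), root 97 kPa replicate 3 (1.58), root 50 kPa/NormOx replicate 1 (1.48) or replicate 2 (1.83), whose unadjusted p then exceeded 0.01.

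For rpl22, a protein of the large subunit, the root values were 5.73 and 5.83 at 50 kPa/NormOx, and 4.29, 4.73 and 3.93 at 97 kPa. They were 4.36, 4.93 and 4.30 at 50 kPa, 4.73, 4.75 and 4.18 at 25 kPa, 4.42 at 25 kPa/NormOx, and 4.82, 5.34 and 4.08 at 97 kPa/HypOx, so that both 50 kPa/NormOx arrays exceeded every other root array. The difference from 97 kPa was 1.46 (SE 0.35, limma adjusted p = 0.581). Without root 50 kPa/NormOx replicate 2 it was 1.41 and the call was lost. Its neighbour rps3, which encodes a protein of the small subunit, had 7.66 and 7.47 at 50 kPa/NormOx and 5.23, 7.01 and 5.57 at 97 kPa. The groups did not overlap, and its difference of 1.63 (SE 0.56) did not pass the threshold. The genome order here is rpl16, rps3, rpl22, rps19.

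The same comparison had a median difference of 0.54 over the members, with 62 of 77 above 0, and 11 members had an unadjusted p under 0.05 (14.3% of the members and 6.88% of all probe sets). Besides rps2, rpl22 and rps3 these were the polymerase genes rpoC2 (0.90) and rpoC1 (1.08), the ATP synthase genes atpF (0.55) and atpH (0.70), psbF (1.82), petG (0.37), rpl16 (0.43) and ycf1 (2.04), all above 0. In genome order rpoC1, rpoC2, rps2, atpI, atpH, atpF and atpA follow one another. The 3 highest members were psaJ (2.27), ycf1 (2.04) and atpB (1.93), and the 3 lowest ndhK (-0.87), ndhJ (-0.71) and rps12 244939_at (-0.61). The second rps12 probe set, 244940_at, had 0.69, so the 2 probe sets differed in sign. The median was 0.20 without root 97 kPa replicate 3. Without root 97 kPa replicate 2, 7 members passed the threshold, without root 97 kPa replicate 1 there was 1, and without root 50 kPa/NormOx replicate 2 there was none. Green-tissue markers had a median difference of -0.32, with 2 of 7 above 0.

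**Figure D3:**
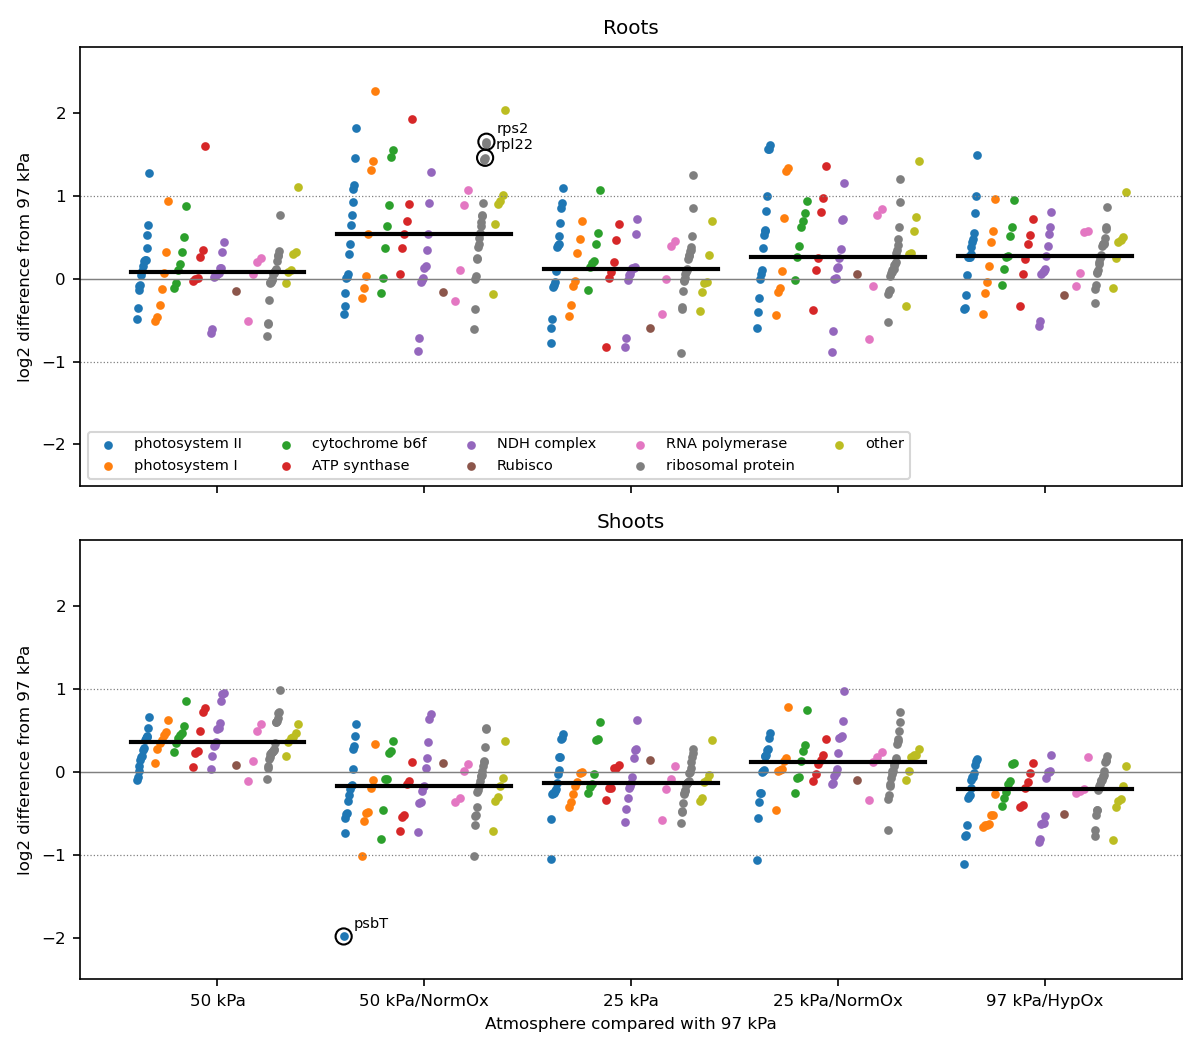
Difference from 97 kPa (log2, vertical axis) of each of the 77 plastid-genome probe sets in each atmosphere (horizontal axis), in roots (upper panel) and shoots (lower panel), coloured by function. Thick lines are medians over the members, dotted lines mark 2-fold, and circles mark called members: rps2 and rpl22 in roots and psbT in shoots, all at 50 kPa/NormOx.

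In shoots at 50 kPa nearly all members lay slightly above ambient pressure. The median difference was 0.36, with 73 of 77 members above 0, and it stayed between 0.23 and 0.47 when any 1 array of either group was left out. The array means of the members overlapped, from 8.79 to 9.21 at 50 kPa and from 8.36 to 8.83 at 97 kPa. No member passed the threshold (0.106% of all probe sets), and 2 had an unadjusted p under 0.05 (6.08%), atpI (0.78) and rps16 (0.99). The other 2 highest were the NDH genes ndhG (0.96) and ndhF (0.95), and the 3 lowest were rpoA (-0.11), psbT (-0.10) and rpl32 (-0.08). All 11 NDH genes were above 0, with a median of 0.52. So were all members of several other functions, among them the ATP synthase and cytochrome b6f. The mitochondrial probe sets had a median of 0.21 in the same comparison, and the green-tissue markers 0.03. Without shoot 50 kPa replicate 2, 2 members passed the threshold, and without shoot 97 kPa replicate 2 there was 1.

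In shoots at 50 kPa/NormOx 1 member fell and none rose, where 0.0528% of all probe sets were called, 0.0176% lower and 0.0352% higher. This was psbT, with 7.77, 7.18, 9.33 and 6.48 at 50 kPa/NormOx and 9.86, 10.14 and 9.03 at 97 kPa. A single 50 kPa/NormOx array lay within the range of the 97 kPa arrays, and the other 3 were the lowest 3 of all 18 shoot arrays. In the remaining groups psbT had 9.26, 9.54 and 9.94 at 50 kPa, 8.51, 9.47 and 7.89 at 25 kPa, 9.36, 8.54 and 7.96 at 25 kPa/NormOx, and 9.0 and 8.14 at 97 kPa/HypOx. The difference from 97 kPa was -1.99 (SE 0.57, limma adjusted p = 0.512). The call was lost without any one of shoot 97 kPa replicate 1 (difference -1.89), shoot 97 kPa replicate 2 (-1.75), shoot 50 kPa/NormOx replicate 2 (-1.82) or replicate 4 (-1.58). Beside psbT in the genome lie psbB, with a difference of 0.28, and psbN, on the opposite strand, with 0.58. The next genes in order are psbH, petB and petD. Their means at 50 kPa/NormOx and 97 kPa were 8.08 and 8.81 for psbH and 11.40 and 11.85 for petB. For petD they were 5.11 and 4.73. Apart from psbT, none of these was called.

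Over all members the median at 50 kPa/NormOx in shoots was -0.17, with 26 of 77 above 0, and 0.06 without shoot 50 kPa/NormOx replicate 4. The lowest after psbT were rpl32 (-1.02) and psaJ (-1.02), and the highest were ndhF (0.71), ndhG (0.64) and psbN (0.58). Apart from psbT, no member had an unadjusted p under 0.05 (5.87% of all probe sets).

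The other shoot comparisons with ambient pressure gave no called member. At 25 kPa (0.281% of all probe sets called), where 1 member had an unadjusted p under 0.05 (7.43%), the median was -0.13, and 0.07 without shoot 25 kPa replicate 3. The highest members were ndhG (0.63), petG (0.61) and psbN (0.46), and the lowest psbT (-1.05), rpl22 (-0.61) and ndhA (-0.61). At 25 kPa/NormOx (0.0528% called, 1 member with an unadjusted p under 0.05 and 2.57% of all probe sets) the median was 0.12, and -0.06 without shoot 25 kPa/NormOx replicate 1. There ndhG (0.98), psaA (0.79) and petG (0.75) were highest, and psbT (-1.06), rpl32 (-0.70) and psbI (-0.56) lowest. At 97 kPa/HypOx (0.185% called, no member with an unadjusted p under 0.05 and 2.84% of all probe sets) the median was -0.20, with 16 of 77 above 0, between -0.45 and 0.00 over the arrays left out. The highest were ndhG (0.21), rps14 (0.20) and rpoB (0.18), and the lowest psbT (-1.11), ndhK (-0.85) and accD (-0.82), a subunit of acetyl-CoA carboxylase. Thus psbT was among the 3 lowest members in all 5 shoot comparisons, and ndhG among the 3 highest, against the same 97 kPa arrays.

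**Figure D4:**
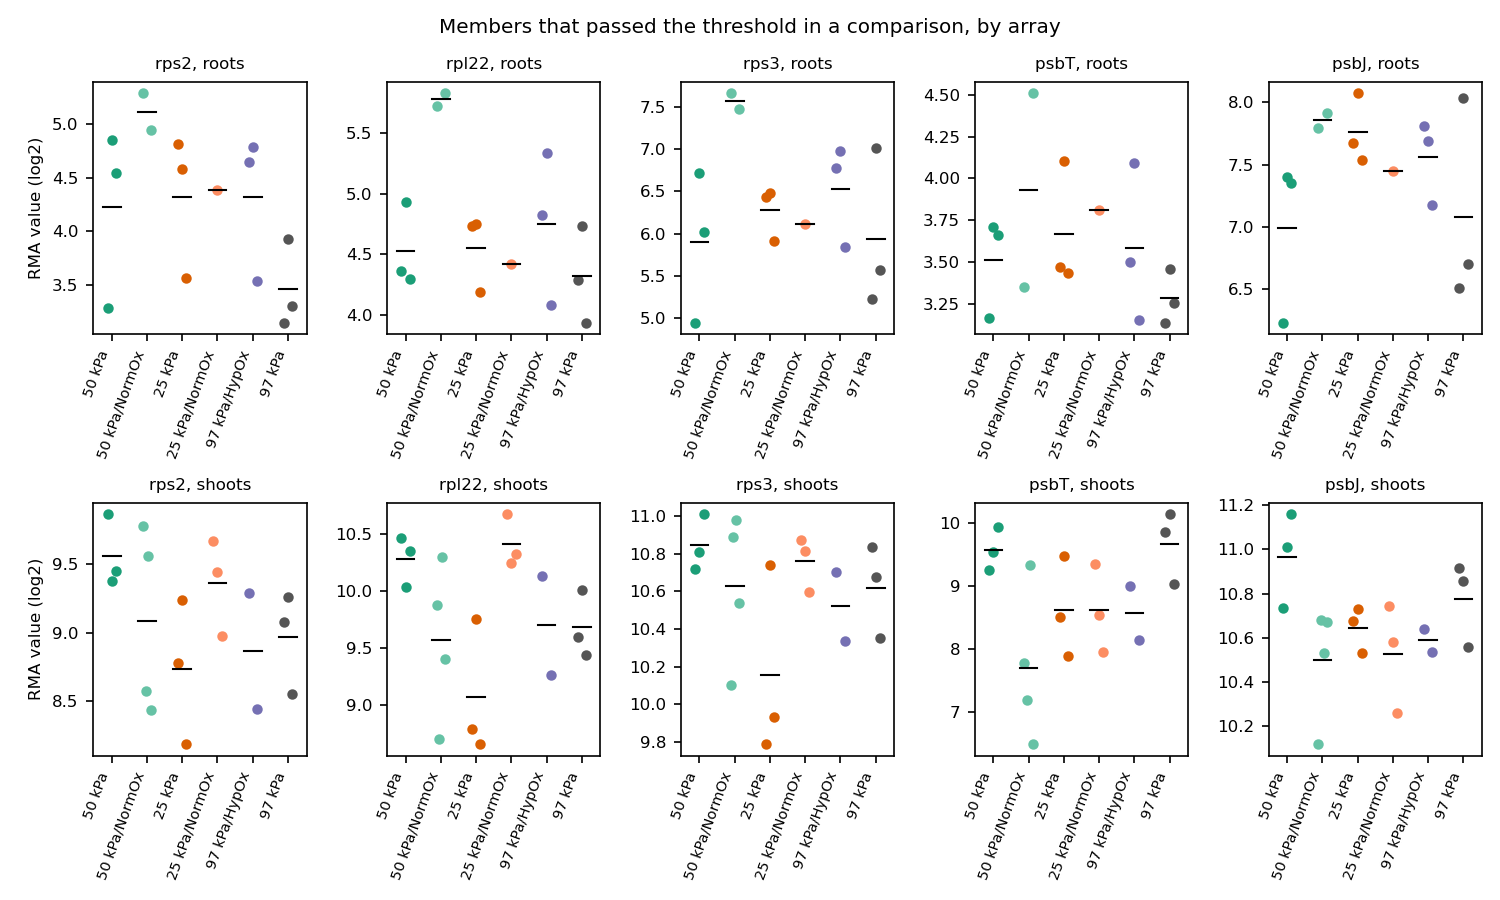
RMA values (log2, vertical axes, scaled to each panel) of the 5 members called in at least 1 comparison, by atmosphere, in roots (upper row) and shoots (lower row), with a point for each array and a bar at the group mean. In roots both 50 kPa/NormOx arrays of rps2, rpl22 and rps3 lie above all others; in shoots 3 of the 4 psbT arrays at 50 kPa/NormOx are the lowest.

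Atmospheres that share a total pressure but differ in oxygen were then compared directly. In shoots at 50 kPa against 50 kPa/NormOx the median difference was 0.55 over the members, with 71 of 77 above 0, and between 0.26 and 0.67 when any 1 array was left out. The array means of the members overlapped, from 8.79 to 9.21 at 50 kPa and from 7.78 to 8.96 at 50 kPa/NormOx. Of the 77, 1 was called, where 0.0879% of all probe sets were, and 19 (24.7%) had an unadjusted p under 0.05, where 7.55% of all probe sets did. The called member was psbT, with 9.26, 9.54 and 9.94 at 50 kPa and 7.77, 7.18, 9.33 and 6.48 at 50 kPa/NormOx, a difference of 1.89 (SE 0.57, limma adjusted p = 0.569). Its groups overlapped by 1 array. The call was lost without shoot 50 kPa replicate 2 or 3 or shoot 50 kPa/NormOx replicate 2 or 4 (differences 1.49 to 1.91).

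The 19 members came from several functional groups and all lay higher at 50 kPa. They included petL (1.37), psaJ (1.29), cemA (1.12), ndhD (1.08), atpA (1.02), psbE (0.98), psaC (0.98), atpB (0.95), clpP (0.88), a subunit of the Clp protease, petB (0.87), rps16 (0.85), rpl23 (0.70), atpI (0.65), psbF (0.59), psbL (0.58) and psbJ (0.47). For petL the values were 8.84, 9.06 and 9.37 at 50 kPa and 7.83, 7.48, 8.88 and 6.70 at 50 kPa/NormOx, with replicate 3 of 50 kPa/NormOx inside the range at 50 kPa. The median was 0.81 for the ATP synthase, 0.72 for photosystem I, 0.63 for the other genes, 0.48 for ribosomal proteins, 0.47 for photosystem II, 0.43 for cytochrome b6f, 0.36 for the RNA polymerase and for the NDH complex, and -0.03 for rbcL. How many were called depended on single arrays of 50 kPa/NormOx: 12 without replicate 3, 9 without the outlying replicate 1, and none without replicate 2 or replicate 4. The mitochondrial probe sets had a median of 0.26 in the same comparison, and the green-tissue markers -0.06, with 1 of 7 above 0.

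In roots the same comparison ran the other way. At 50 kPa against 50 kPa/NormOx the median was -0.42, with 13 of 77 above 0 (-0.52 to -0.28 over the arrays left out). The array means of the members did not overlap, from 5.37 to 5.82 at 50 kPa and 6.00 and 6.20 in the 2 arrays at 50 kPa/NormOx. Of the 77, 1 was called, lower at 50 kPa, where 0.044% of all probe sets were called and 0.0044% lower, and 6 had an unadjusted p under 0.05 (2.19%). The called member was rpl22, with a difference of -1.25 (SE 0.35, limma adjusted p = 1) and no overlap between the 3 arrays at 50 kPa and the 2 at 50 kPa/NormOx. The call was lost without root 50 kPa replicate 1 (-1.17) or 3 (-1.14) or root 50 kPa/NormOx replicate 1 (-1.31) or 2 (-1.20). The others with an unadjusted p under 0.05 were rps3 (-1.67), rps4 (-0.73), rpoC2 (-0.64), atpF (-0.53) and rpl16 (-0.34).

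At 25 kPa against 25 kPa/NormOx no root member was called (0.215% of all probe sets) or had an unadjusted p under 0.05 (3.57%), and the median was -0.20, against a single array. In shoots 1 was called, where 0.136% of all probe sets were, and 3 had an unadjusted p under 0.05 (6.35%). Here rpl22 fell, with 8.79, 9.75 and 8.65 at 25 kPa and 10.67, 10.24 and 10.32 at 25 kPa/NormOx, a difference of -1.34 (SE 0.37, limma adjusted p = 0.331). The groups did not overlap, and the call was lost without shoot 25 kPa replicate 1 (-1.20) or 3 (-1.14) or shoot 25 kPa/NormOx replicate 1 (-1.21). The neighbour rps3 had a difference of -0.61 in that comparison. At 25 kPa against 97 kPa/HypOx, which have low oxygen in common and differ in total pressure, no member was called in roots (median -0.14, 0% of all probe sets called) or in shoots (median 0.16, 0.022%). An unadjusted p under 0.05 was reached by 1 root member (1.73% of all probe sets), psbH (-0.63), and by no shoot member (2.51%). The root median there was 0.06 without root 97 kPa/HypOx replicate 2, and the shoot median was -0.10 without shoot 25 kPa replicate 2.

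Whether a difference itself was unlike in the 2 tissues was tested as root response minus shoot response in 1 limma model of all 33 arrays. That model treated root and shoot arrays as independent, and the labels do not say whether they share plants or chambers. It also used 1 spread per probe set for both tissues, though spreads differed. In roots and shoots the SDs were 0.43 and 0.81 for psbT, 0.42 and 0.49 for rpl22, 0.69 and 0.33 for rps3, and 0.54 and 0.21 for psbJ. For 50 kPa/NormOx against 97 kPa the median was 0.77 over the members, with 56 of 77 above 0, and 2 were called, where 0.492% of all probe sets were. They were psbT (2.63, SE 0.76), with a shoot difference of -1.99, and rpl22 (1.57, SE 0.52), with a root difference of 1.46, both with a limma adjusted p = 0.499. Root psbT was near the dimmest members, with 3.14, 3.46 and 3.26 at 97 kPa, which limits how far it could fall in roots. Without root 50 kPa/NormOx replicate 2 the value for psbT was 2.05 and its call was lost. For rpl22 the call was lost without any one of root 97 kPa replicate 1 or 3, root 50 kPa/NormOx replicate 1 or 2, shoot 97 kPa replicate 2, or shoot 50 kPa/NormOx replicate 2 or 4 (values 1.28 to 1.63). The count was 12 without root 97 kPa replicate 2, 4 without shoot 50 kPa/NormOx replicate 1 or 3, 1 without root 97 kPa replicate 3, shoot 97 kPa replicate 2 or shoot 50 kPa/NormOx replicate 4, and 0 without root 50 kPa/NormOx replicate 2. For the remaining atmospheres against 97 kPa no member was called, and the medians were -0.26 at 50 kPa (0.343% of all probe sets called), 0.27 at 25 kPa (0.813%), 0.18 at 25 kPa/NormOx (0.0615%) and 0.54 at 97 kPa/HypOx (0.431%).

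The same test of 50 kPa against 50 kPa/NormOx, added after its values had been seen, had a median of -0.97, with 7 of 77 above 0. Of the 77, 4 were called, all below 0, where 0.11% of all probe sets were called and 0.0747% below 0, and 19 had an unadjusted p under 0.05 (4.47% of all probe sets). They were psbT (-2.31, SE 0.76), rpl22 (-1.97, SE 0.52), rps3 (-1.89, SE 0.58) and psbJ (-1.33, SE 0.44), a small photosystem II gene of the psbE, psbF, psbL and psbJ cluster, each with a limma adjusted p = 0.851. The dim root level of psbT limits its root difference here as well. The call of rpl22 held when any 1 array was left out. That of rps3 was lost without root 50 kPa replicate 1 or root 50 kPa/NormOx replicate 1. That of psbT was lost without any one of 5 arrays and that of psbJ without any one of 6, in roots and shoots alike. The shoot values of psbJ were 10.73, 11.01 and 11.16 at 50 kPa and 10.12, 10.68, 10.53 and 10.67 at 50 kPa/NormOx, without overlap. Its root values were 6.23, 7.40 and 7.35 at 50 kPa and 7.80 and 7.92 at 50 kPa/NormOx, also without overlap and in the opposite order. Over the members, 62 lay below 0 in roots and above 0 in shoots, 9 above 0 in both, 2 below 0 in both, and 4 above 0 in roots and below 0 in shoots. The mitochondrial probe sets had a median of -0.30. The count was 11 without shoot 50 kPa/NormOx replicate 3, 2 without shoot 50 kPa replicate 3 or root 50 kPa/NormOx replicate 2, and 1 without root 50 kPa replicate 1.

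**Figure D5:**
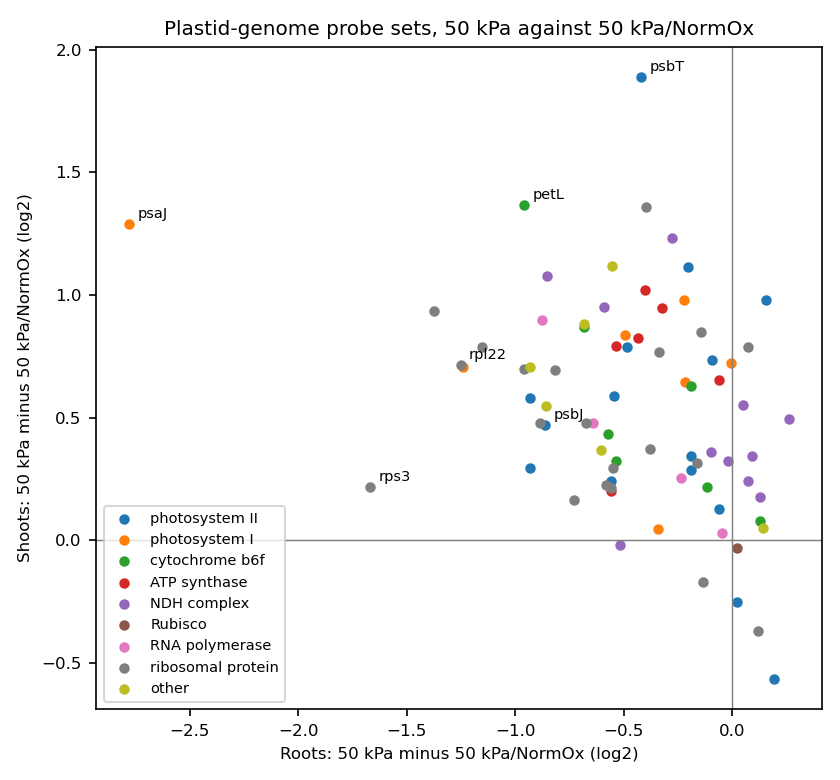
Difference between 50 kPa and 50 kPa/NormOx (log2) of the 77 plastid-genome probe sets, in roots (horizontal axis) and shoots (vertical axis), coloured by function, with some members named. The upper left field, below 0 in roots and above 0 in shoots, holds 62 of the 77.

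The best-known plastid genes gave no called difference from 97 kPa. For rbcL, the large subunit of the carbon-fixing enzyme Rubisco, the root differences from 97 kPa lay between -0.60 (25 kPa) and 0.06 (25 kPa/NormOx) and the shoot differences between -0.51 (97 kPa/HypOx) and 0.15 (25 kPa). Root psbA had differences of 0.65 at 50 kPa, 1.13 at 50 kPa/NormOx, 0.42 at 25 kPa, 1.62 at 25 kPa/NormOx and 0.45 at 97 kPa/HypOx, with SEs of 0.99 to 1.40. In shoots psbA had differences between -0.50 (50 kPa/NormOx) and 0.29 (50 kPa), each with an SE of 0.37 or more. The reaction-centre and antenna genes psbD and psbC, for the D2 and CP43 proteins, differed little in roots (0.02 to 0.11 for psbD and -0.09 to 0.59 for psbC) and more in shoots (-0.10 to 0.43 for psbD and -0.76 to 0.53 for psbC). For psaA, the root differences were between -0.17 and -0.09 with SEs of 0.14 to 0.19, and its shoot differences were between -0.64 and 0.79 with SEs of 0.57 to 0.69. Its mean level was 4.28 in roots, under the all-probe-set median of 5.12, and 6.77 in shoots. Root psbD was dim as well, with a mean of 4.70, while psbC averaged 5.28. A dim signal can narrow both differences and SEs, so the small root values do not show a more precise measurement.

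Among expression genes, rpoC2 had root differences of 0.25 at 50 kPa, 0.90 at 50 kPa/NormOx, 0.39 at 25 kPa, 0.77 at 25 kPa/NormOx and 0.56 at 97 kPa/HypOx, none of which passed the threshold. In the same order rpoC1 had 0.20, 1.08, 0.45, 0.84 and 0.58, while rpoA lay between -0.73 and -0.09. The values of rpoB lay between -0.09 and 0.11, at a dim mean level of 3.76 that limits the size of a difference. Without root 97 kPa replicate 1, rpoC1 and rpoC2 were still above 0 in all 5 root comparisons, while rpoA was 0.03 at 50 kPa/NormOx and 0.21 at 97 kPa/HypOx. The housekeeping genes clpP and accD had root differences of 1.01 and 0.94 at 50 kPa/NormOx, with SEs of 1.03 and 0.60. For ycf2, whose product belongs to a protein complex of the inner envelope, the root differences were between -0.33 and -0.04 and the shoot differences between 0.07 and 0.42. The splicing factor gene matK had root differences between 0.29 and 0.91 and shoot differences between -0.17 and 0.20.

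Of a list of 37 nuclear genes for plastid gene expression, 2 could be matched by name to a probe set: RPOTmp, a phage-type RNA polymerase directed to plastids and mitochondria, and CRP1, a processing factor for petB and petD mRNA known from maize. Neither was called in any comparison. The differences from 97 kPa of RPOTmp were between -0.28 and 0.06 in roots and between -0.13 and 0.05 in shoots. Those of CRP1 were between -0.70 (25 kPa/NormOx) and -0.22 (50 kPa) in roots and between -0.13 (50 kPa) and 0.15 (97 kPa/HypOx) in shoots.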

How the data were processed

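Roots and shoots were measured on 15 and 18 ATH1 arrays. The authors deposited log2 values per probe set, made with RMA per the methods; the submitters' processing notes also name the Affymetrix Expression Console, which the methods mention for a MAS5 primary analysis (versions not given in the sources used here). Quantiles were common to the arrays of each tissue and differed between tissues, so each tissue was normalized apart. RMA corrects background, forces arrays to a common distribution and summarises the probes of a set, so a level is relative to the other transcripts of that tissue. The number of arrays per group limits the precision. Probe sets were named from the platform annotation: 13513 had 1 gene symbol, 503 several and 8730 none. Genome location and neighbour order came from the RefSeq gene table (TAIR10.1). The mitochondrial probe sets were those with lower-case organelle gene symbols outside the plastid genome. Coordinates were not used, and sequences were not used here.

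Groups came from the sample labels. For each tissue a linear model of the 6 groups was fitted to all 22746 probe sets with limma 3.58.1 in R 4.3.3 (lmFit, eBayes, no covariates). Differences between tissues in response came from 1 model of the 33 arrays and 12 groups. Calls required an unadjusted p under 0.01 and a 2-fold difference, as in the study's methods. The scripts were tested on simulated data. Spread is the SD around group means, pooled; correlations are of deviations from group means. The members, marker lists and comparisons were chosen with earlier results of these data known. Named members were those called, the 3 highest and 3 lowest in each comparison with 97 kPa, the 3 brightest, dimmest and most variable per tissue, those with a far array in a group, and a list of 19 well-known genes; others were named after their values were seen. Alternatives were each array left out, both outlying arrays left out, a replicate block, centring on nuclear probe sets, a filter on the dimmest 25% of probe sets (which kept 59 of the 77 members in roots and 75 in shoots), a fit of only the groups compared, a trended and robust spread, array weights, and only members with 1 gene copy and a plain probe set suffix (69 of 77).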

Additional observations from a re-analysis of the deposited data

Results flagged for a closer look

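In the only group of 4 arrays, shoots at 50 kPa/NormOx, a single array lay far from the others for 3 of the 77 members. The measure was the gap to the nearest array over the group's range. The critical value for 4 arrays is 0.829, and chance passes it in about 1 of 20 groups. A count of 3 among 77 members is no more than that share, and the count over all probe sets is not given here. The values are descriptions. For rps14 replicate 2 was high (5.00, 6.67, 5.11 and 5.03 in replicates 1 to 4, ratio 0.935). For accD replicate 4 was low (6.99, 7.10, 7.08 and 5.16, ratio 0.944). For rpl20, a protein of the large ribosomal subunit, replicate 4 was again low (7.69, 7.49, 7.70 and 5.90, ratio 0.881). That array was also the lowest of its group in the mean over all members.

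Responses that differed between roots and shoots by the test of the difference itself were, for 50 kPa/NormOx against 97 kPa, those of psbT (root minus shoot 2.63) and rpl22 (1.57). For 50 kPa against 50 kPa/NormOx, a comparison of tissues added after its values were seen, they were those of psbT (-2.31), rpl22 (-1.97), rps3 (-1.89) and psbJ (-1.33). None of these responses had an adjusted p under 0.05 in limma. Root psbT averaged 3.59, near the dimmest members, which limits its root differences. The outlying arrays, the small number of root arrays at 50 kPa/NormOx and the variation shared by most members were present in the same comparisons. Their part was not tested.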

How the results depend on the processing

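No called member changed direction under any alternative. The median over the members did: with array weights it was -0.19 in roots at 50 kPa, -0.24 at 25 kPa, -0.01 at 25 kPa/NormOx and -0.09 at 97 kPa/HypOx, against 97 kPa, and 0.10 for root minus shoot response at 50 kPa; with a replicate block it was 0.06 in shoots at 50 kPa/NormOx against 97 kPa and 0.04 for root minus shoot response in 25 kPa against 25 kPa/NormOx. Centring on nuclear probe sets, the filter on dim probe sets and the restriction to members with 1 gene copy left every count of called members within 1.5 times. With array weights the count was 2 in roots at 50 kPa, 7 at 25 kPa, 3 at 25 kPa/NormOx and 2 at 97 kPa/HypOx, 1 in shoots at 50 kPa and 6 at 50 kPa/NormOx, all against 97 kPa; it was 2 in roots and 25 in shoots for 50 kPa against 50 kPa/NormOx, where 0.132% and 0.198% of all probe sets were called. For root minus shoot response it was 7 at 50 kPa/NormOx and 1 at 25 kPa/NormOx against 97 kPa. For the added comparison of 50 kPa against 50 kPa/NormOx it was 27. No such share is given here for the other counts of this paragraph, so they are not read as a result about the members. Array weights gave an adjusted p under 0.05 to 14 to 27 members in each root comparison with 97 kPa, but also to 6653 to 12550 of all 22746 probe sets. Without both outlying arrays the count was 1 in roots at 50 kPa/NormOx, and 2 in roots and 9 in shoots for 50 kPa against 50 kPa/NormOx. In a fit of only the groups compared it was 2 and 0 for that comparison in roots and shoots, 0 in shoots at 50 kPa/NormOx and 0 for its root minus shoot response. With a trended and robust spread it was 2 in roots and 2 in shoots for 50 kPa against 50 kPa/NormOx, and 4 for root minus shoot response at 50 kPa/NormOx.

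With 1 array left out, the count ranged from 0 to 2 in roots at 50 kPa, 0 to 7 at 50 kPa/NormOx, 0 to 3 at 25 kPa, 0 to 2 at 25 kPa/NormOx, 0 to 1 at 97 kPa/HypOx and 0 to 2 for 50 kPa against 50 kPa/NormOx. In shoots it ranged from 0 to 2 at 50 kPa, 0 to 2 at 50 kPa/NormOx, 0 to 1 for 25 kPa against 25 kPa/NormOx and 0 to 12 for 50 kPa against 50 kPa/NormOx. For root minus shoot response the range was 0 to 1 at 50 kPa, 0 to 12 at 50 kPa/NormOx, 0 to 3 at 25 kPa, 0 to 1 at 25 kPa/NormOx, 0 to 3 at 97 kPa/HypOx, and 1 to 11 for the added comparison. The cause of these changes was not tested.

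With the replicate number as a block the count was 1 in roots and 0 in shoots at 50 kPa/NormOx, 0 in shoots for 50 kPa against 50 kPa/NormOx, and 1 for root minus shoot response at 50 kPa/NormOx; it moved no other count by over 1.5 times. The labels do not say that a number marks a shared chamber or day. Of the 7 comparisons with 97 kPa that had 3 same-numbered pairs of arrays, none had every pair correlated over 0.1 in deviations over all probe sets (0.00, 0.16 and 0.27 for roots at 25 kPa). Over the plastid members alone 4 did: roots at 25 kPa (0.52 to 0.79) and 97 kPa/HypOx (0.35 to 0.53), and shoots at 25 kPa (0.31 to 0.51) and 25 kPa/NormOx (0.36 to 0.46). In shoots at 50 kPa/NormOx, where the block ended the call of psbT, the range over the members was -0.49 to 0.50. The numbers were not used as pairs, and pairing among the members cannot be told apart from the variation they share.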
